A study of Rattus norvegicus with 18 samples.

Results

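The subunits of hypoxia-inducible factor (HIF) and the enzymes that set its stability were examined as a group of 10 genes in rat 9L gliosarcoma. They are the alpha subunits Hif1a, Epas1 and Hif3a, the beta subunits Arnt and Arnt2, the prolyl hydroxylases Egln1, Egln2 and Egln3, the asparaginyl hydroxylase Hif1an and the ubiquitin ligase subunit Vhl. A probe set was taken when the platform annotation gave it exactly 1 gene symbol and that symbol was one of the 10. All 10 genes were found, on 11 of the 27363 probe sets of the array, among 14324 named genes in all. Egln1 had 2 probe sets, numbered 10724578 and 10811951 and both annotated to the same Egln1 mRNA. The rat Egln1 gene lies on chromosome 19 in the RefSeq table of build GRCr8. Of the 20 annotated probe sets with the nearest numbers, 16 name genes of chromosome 19 for 10811951, but 0 do for 10724578, whose 20 neighbours all name genes of chromosome 1. For the other member probe sets, 18 to 20 of the 20 neighbours name genes of the member's own chromosome. Probe coordinates were not used here, so signal of 10724578 from Egln1 and from a similar sequence elsewhere cannot be told apart, and the 2 are given separately. The numbering was looked at after the values were seen.

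The 9L line is a gliosarcoma line that grows as a tumour in the Fischer rat. Hypoxic tumour regions (3 arrays) were those positive for EF5, a 2-nitroimidazole that binds in cells short of oxygen, and normoxic tumour regions (3 arrays) were EF5-negative areas of the same 3 tumours, both cut out by laser capture. The hosts were male Fischer 344 rats aged 6 weeks, and each tumour came from a serially passaged piece of a subcutaneous 9L tumour that had been tied onto the epigastric artery and vein. The cultures were 9L cells kept for 16 h or for 6 h in 0.2% oxygen or in about 20% oxygen (3 arrays in each of the 4 groups, given here by the numbers in their titles, 22, 28 and 29 at 16 h and 6, 13 and 26 at 6 h). The labels do not explain the codes these numbers come from, and the code with number 26 also stands in the titles of both tumour 2 regions. The labels name no genetic change in any group, and RNA from every sample was amplified before it was labelled. Nothing in the labels says that the cultures were grown independently, so a p-value for cultures reflects only how far these particular samples scatter, and that scatter may be technical.

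Levels are log2 probe set signals, on which a difference of 1 is a doubling. Array medians ran from 6.36 to 6.50 in tumour regions and from 6.02 to 6.19 in cultures, and replicate arrays correlated at 0.937 to 0.964 across probe sets in tumours and at 0.988 to 0.996 in cultures. Scanner backgrounds were not used here, so no probe set is called absent, and levels of different probe sets are not set against each other. For the same reason the glial origin of the line could not be checked by presence or absence of single markers. The mean level of 11 glial and neural stem cell markers (of 14 listed) ran from 6.75 to 7.11 over the tumour arrays, against 6.23 to 6.48 over the culture arrays.

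When oxygen is plentiful, EGLN enzymes hydroxylate prolines in the HIF alpha subunits, VHL binds the hydroxylated protein, and its ubiquitin ligase sends it for destruction. HIF1AN hydroxylates an asparagine in the same subunits and so blocks their binding to coactivators. When oxygen is short these reactions slow down, the alpha subunit accumulates, pairs with ARNT or ARNT2 and switches on genes through the hypoxia response element. Most of this control acts on protein, which these arrays did not measure. EGLN1 and EGLN3 are themselves known HIF targets, and so form a feedback arm of the pathway.

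The promoters of Egln3, which rose in hypoxic cultures, of Egln1, for which 1 of 2 probe sets rose, and of Hif1a, which did not pass the test, are shown for the letters that make up the core of the hypoxia response element. The sequences are the 250 bases before the transcript start in the RefSeq promoter table of build GRCr8, written 5′ to 3′ on the strand of the gene, with every match to ACGTG or GCGTG on either strand in capitals. They lie at chr19:69804682-69804931 (minus strand) for Egln1, chr6:77411016-77411265 (minus strand) for Egln3 and chr6:98359648-98359897 (plus strand) for Hif1a. The Hif1a window lies inside the annotated span of that gene, since the gene has another start upstream.

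Egln1: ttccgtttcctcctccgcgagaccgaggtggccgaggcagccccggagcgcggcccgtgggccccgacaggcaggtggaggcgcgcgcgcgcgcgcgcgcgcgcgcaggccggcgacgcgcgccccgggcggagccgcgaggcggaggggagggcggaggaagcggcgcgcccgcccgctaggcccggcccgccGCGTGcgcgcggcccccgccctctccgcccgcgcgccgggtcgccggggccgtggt

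Egln3: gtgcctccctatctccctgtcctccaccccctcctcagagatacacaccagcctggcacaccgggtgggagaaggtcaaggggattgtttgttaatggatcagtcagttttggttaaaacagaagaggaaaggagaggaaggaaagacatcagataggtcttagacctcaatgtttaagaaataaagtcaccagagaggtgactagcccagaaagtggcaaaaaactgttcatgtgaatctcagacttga

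Hif1a: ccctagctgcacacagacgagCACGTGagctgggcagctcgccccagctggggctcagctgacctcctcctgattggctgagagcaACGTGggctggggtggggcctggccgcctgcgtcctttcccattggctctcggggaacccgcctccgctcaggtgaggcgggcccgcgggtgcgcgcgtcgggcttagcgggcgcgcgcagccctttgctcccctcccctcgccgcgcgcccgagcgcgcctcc

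The Egln1 window held 1 match, a GCGTG whose first base lies 56 bases before the start, and the Egln3 window held 0. The Hif1a window held 3 matches to ACGTG, of which 2 overlap as the 2 strands of the palindrome CACGTG. Either motif was found in 36.7% of the 33469 RefSeq rat promoters of the same length, and 3 or more matches in 6.21%. Among the other members, Arnt had 1 match, 1 of the 2 Hif3a promoters had 2, and Epas1, Arnt2, Egln2, Hif1an and Vhl had 0. A match is a run of letters and not a measured binding site, and a window without one says nothing of sites elsewhere.

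In hypoxic cultures the prolyl hydroxylase gene Egln3 rose, as did 1 of the 2 probe sets annotated to Egln1, and none of the other 8 genes passed the test. Egln3 was 2.70-fold higher in 0.2% oxygen at 16 h and 2.35-fold higher at 6 h. Egln1 probe set 10724578 was 3.05-fold higher at 16 h and 2.47-fold higher at 6 h, and it is the one whose neighbours in number lie on chromosome 1. Egln1 probe set 10811951 was higher at both times and did not pass (limma adjusted p of 0.388 at 16 h and 0.205 at 6 h). The test was limma's moderated test, its p-values adjusted by the Benjamini-Hochberg method across the 27363 probe sets, with calls made at an adjusted p under 0.05. It called 2 of the 11 member probe sets at 16 h, both higher, where 0.603% of all probe sets were called higher and 0.705% in either direction. At 6 h it again called 2 of 11 higher, the same 2, where 0.183% of all probe sets were called higher and 0.190% in either direction. Both calls at both times were lost when the 6 tumour arrays were added to the fit (18 arrays in 6 groups, 0 of 11 called at each time). The differences between the cultures are the same in that fit, which only takes its spread from the tumour arrays as well.

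**Figure D1:**
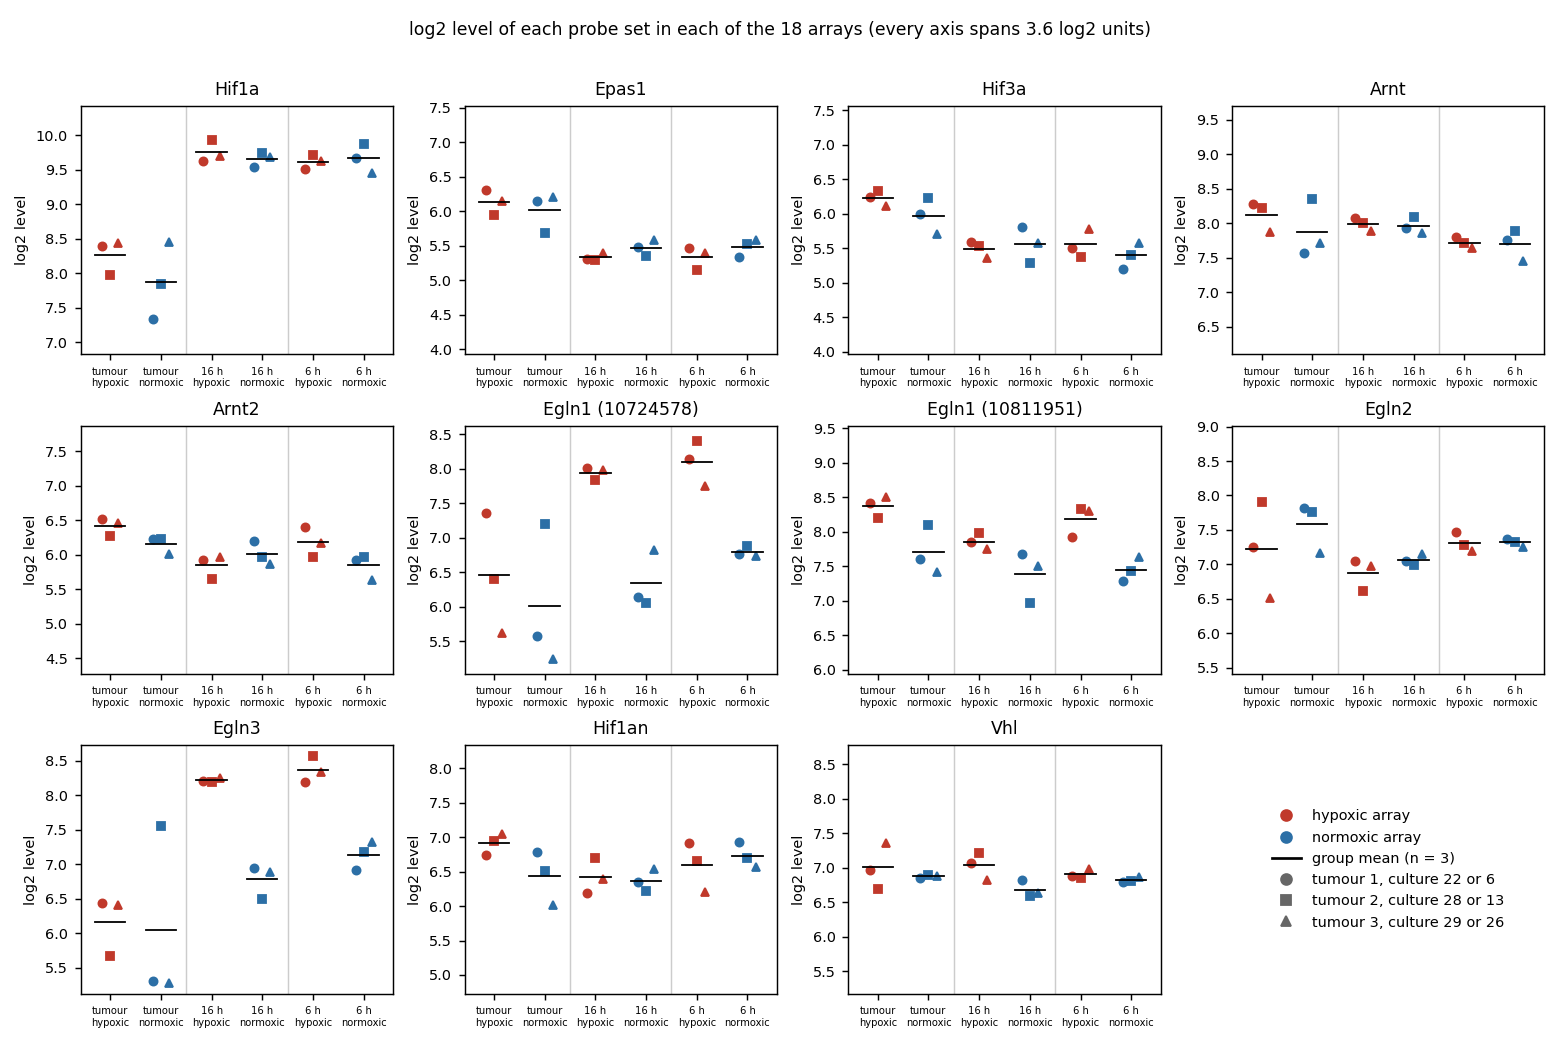
log2 level (vertical axis) of each of the 11 probe sets in each of the 18 arrays, by group along the horizontal axis, with hypoxic arrays in red, normoxic arrays in blue, a bar at each group mean and a symbol for the tumour or culture number. Egln3 and Egln1 (10724578) stand apart between hypoxic and normoxic cultures at both times, and the Hif1a tumour arrays all lie below the culture arrays.

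Of the alpha subunits, Hif1a is the widely expressed one. In the tumours it read 8.40, 7.97 and 8.43 in hypoxic tissue of tumours 1, 2 and 3, against 7.33, 7.85 and 8.46 in their normoxic regions. The hypoxic region was thus higher in tumours 1 and 2, by 1.07 and 0.12, and level in tumour 3, at -0.02, and the ranges overlapped. The difference was 0.39 ± 0.26 (SE; limma adjusted p = 0.670).

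Hif1a read 9.63, 9.93 and 9.71 in the hypoxic cultures at 16 h (cultures 22, 28 and 29), against 9.54, 9.75 and 9.69 in the normoxic ones. At 6 h it read 9.51, 9.72 and 9.63 in the hypoxic cultures (cultures 6, 13 and 26), against 9.67, 9.87 and 9.46 in the normoxic ones. The ranges overlapped at both times. The differences were 0.09 ± 0.12 at 16 h (limma adjusted p = 0.938) and -0.05 ± 0.12 at 6 h (limma adjusted p = 0.991). The Hif1a group means ran from 9.75 (hypoxic cultures at 16 h) through 9.67, 9.66 and 9.62 in the other culture groups, which overlapped, to 8.27 in hypoxic and 7.88 in normoxic tumour regions, which overlapped each other and lay below every culture array.

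Epas1 encodes HIF-2 alpha, known from endothelium and some tumours. It read 6.31, 5.94 and 6.16 in hypoxic tissue of tumours 1 to 3, against 6.14, 5.69 and 6.20 in the normoxic regions. Its difference of 0.12 ± 0.18 (limma adjusted p = 0.815) lay within the overlap of the groups. In cultures Epas1 read 5.30, 5.29 and 5.40 in hypoxia at 16 h, against 5.49, 5.35 and 5.58 in normoxia. At 6 h it read 5.47, 5.15 and 5.39 in hypoxia, against 5.34, 5.52 and 5.58 in normoxia. The differences were -0.14 ± 0.11 at each time, with overlapping groups and limma adjusted p-values of 0.865 at 16 h and 0.984 at 6 h.

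Hif3a encodes an alpha subunit with forms that can inhibit the pathway. It read 6.25, 6.33 and 6.12 in the hypoxic regions, against 5.99, 6.22 and 5.71 in the normoxic regions of tumours 1 to 3. It was higher in the hypoxic region of each tumour, by 0.26, 0.11 and 0.41, and the mean difference was 0.26 ± 0.18 (limma adjusted p = 0.680). In cultures its values ran from 5.35 to 5.59 in hypoxia and from 5.29 to 5.81 in normoxia at 16 h, and from 5.38 to 5.78 in hypoxia and from 5.21 to 5.58 in normoxia at 6 h. These ranges overlapped, and its differences were -0.06 ± 0.15 at 16 h and 0.16 ± 0.15 at 6 h.

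Arnt, the usual partner of the alpha subunits, read 8.27, 8.22 and 7.87 in hypoxic tumour regions, against 7.57, 8.36 and 7.70 in normoxic ones. Tumour 2 ran against the other two, and the difference of 0.24 ± 0.23 had a limma adjusted p of 0.726. In cultures the Arnt differences were 0.03 ± 0.12 at 16 h and 0.01 ± 0.12 at 6 h, with overlapping groups. Arnt group means spanned only 7.70 to 8.12, and each group overlapped its neighbour in the order. Groups further apart need not overlap: hypoxic cultures read 7.88 to 8.08 at 16 h and 7.64 to 7.80 at 6 h.

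Arnt2, a second beta subunit best known from neural tissue, read 6.51, 6.28 and 6.46 in hypoxic tumour regions, against 6.22, 6.22 and 6.01 in normoxic regions. The ranges did not overlap, and the difference was 0.26 ± 0.19 (limma adjusted p = 0.681). In cultures Arnt2 read 5.93, 5.65 and 5.97 in hypoxia, against 6.20, 5.97 and 5.86 in normoxia at 16 h, and 6.40, 5.97 and 6.17 in hypoxia, against 5.93, 5.97 and 5.63 in normoxia at 6 h. Its difference was -0.16 ± 0.14 at 16 h and 0.33 ± 0.14 at 6 h, and neither passed. The test of the 2 responses against each other gave -0.49 ± 0.20 with an unadjusted limma p of 0.0288, or an adjusted p of 0.982.

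Both probe sets called in cultures are annotated to prolyl hydroxylases. Egln3, the member of the family known for strong induction by hypoxia, read 8.21, 8.19 and 8.25 in hypoxic cultures at 16 h, against 6.95, 6.50 and 6.89 in normoxic cultures. At 6 h it read 8.19, 8.57 and 8.33 in hypoxic cultures, against 6.91, 7.17 and 7.32 in normoxic cultures. Every hypoxic culture lay above every normoxic culture at both times. The differences were 1.44 ± 0.14 at 16 h (limma adjusted p = 0.000225) and 1.23 ± 0.14 at 6 h (limma adjusted p = 0.00139).

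Egln1 encodes PHD2, the main oxygen sensor among the prolyl hydroxylases. Its probe set 10724578 read 8.01, 7.85 and 7.99 in hypoxic cultures at 16 h, against 6.14, 6.06 and 6.82 in normoxic cultures. At 6 h it read 8.14, 8.41 and 7.75 in hypoxic cultures, against 6.76, 6.88 and 6.74 in normoxic cultures. The groups did not overlap at either time. The differences were 1.61 ± 0.19 at 16 h (limma adjusted p = 0.000912) and 1.30 ± 0.19 at 6 h (limma adjusted p = 0.00881). The 6 h call rested on single arrays: the adjusted p was 0.0612 without hypoxic culture 13 and 0.0519 without normoxic culture 6.

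The second Egln1 probe set, 10811951, read 7.84, 7.98 and 7.74 in hypoxic cultures at 16 h, against 7.67, 6.97 and 7.50 in normoxic cultures, and 7.93, 8.33 and 8.30 in hypoxic cultures at 6 h, against 7.28, 7.43 and 7.63 in normoxic cultures. Hypoxic cultures lay above normoxic ones at both times here too, with smaller differences that did not pass. They were 0.48 ± 0.17 at 16 h (limma adjusted p = 0.388) and 0.74 ± 0.17 at 6 h (unadjusted p = 0.000735, adjusted p = 0.205). The only call for Egln1 thus rests on the probe set whose source is in doubt.

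Egln2, which encodes PHD1, passed in neither setting. It read 7.05, 6.62 and 6.98 in hypoxic cultures at 16 h, against 7.05, 7.00 and 7.16 in normoxic cultures, and its 6 h difference was -0.0065 ± 0.12. In the tumours Egln2 read 7.25, 7.91 and 6.52 in hypoxic regions, against 7.82, 7.76 and 7.17 in normoxic regions. It was lower in the hypoxic regions of tumours 1 and 3, by -0.57 and -0.66, and higher in tumour 2, by 0.15, with a mean difference of -0.36 ± 0.23 (limma adjusted p = 0.662).

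Hif1an encodes FIH, the asparaginyl hydroxylase. It read 6.74, 6.95 and 7.04 in hypoxic tumour regions, against 6.79, 6.51 and 6.02 in normoxic regions, so that tumours 2 and 3 differed by 0.43 and 1.02 and tumour 1 by -0.05. The mean difference was 0.47 ± 0.25 (limma adjusted p = 0.629). In cultures the Hif1an differences were 0.06 ± 0.18 at 16 h and -0.14 ± 0.18 at 6 h, and both times had overlapping groups.

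Vhl, the substrate-binding subunit of the ligase, read 7.07, 7.21 and 6.81 in hypoxic cultures at 16 h, against 6.81, 6.59 and 6.63 in normoxic cultures. The 3 hypoxic values were the highest, the lowest of them only just above the highest normoxic one, and the difference of 0.35 ± 0.11 did not pass (unadjusted p = 0.00724, limma adjusted p = 0.282). At 6 h the Vhl difference was 0.08 ± 0.11. In the tumours Vhl read 6.96, 6.69 and 7.35 in hypoxic regions, against 6.86, 6.89 and 6.87 in normoxic regions, a difference of 0.13 ± 0.21 with tumour 2 running the other way.

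Counted without a test, hypoxic cultures lay wholly above normoxic ones for 4 of the 11 probe sets at 16 h (both of Egln1, Egln3 and Vhl), where 6.60% of all probe sets did so. At 6 h the count was 3 of 11 (both of Egln1 and Egln3), where 5.60% did so. The hypoxia response did not differ detectably between 16 h and 6 h for any member: 0 of 11 passed, as did 0 of all 27363 probe sets (0%), while 1194 (4.36%) and 1 member, Arnt2, had an unadjusted limma p under 0.05. The difference between the 2 responses was 0.20 ± 0.20 for Egln3, 0.30 ± 0.27 for Egln1 probe set 10724578, -0.26 ± 0.24 for probe set 10811951 and 0.27 ± 0.16 for Vhl.

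**Figure D2:**
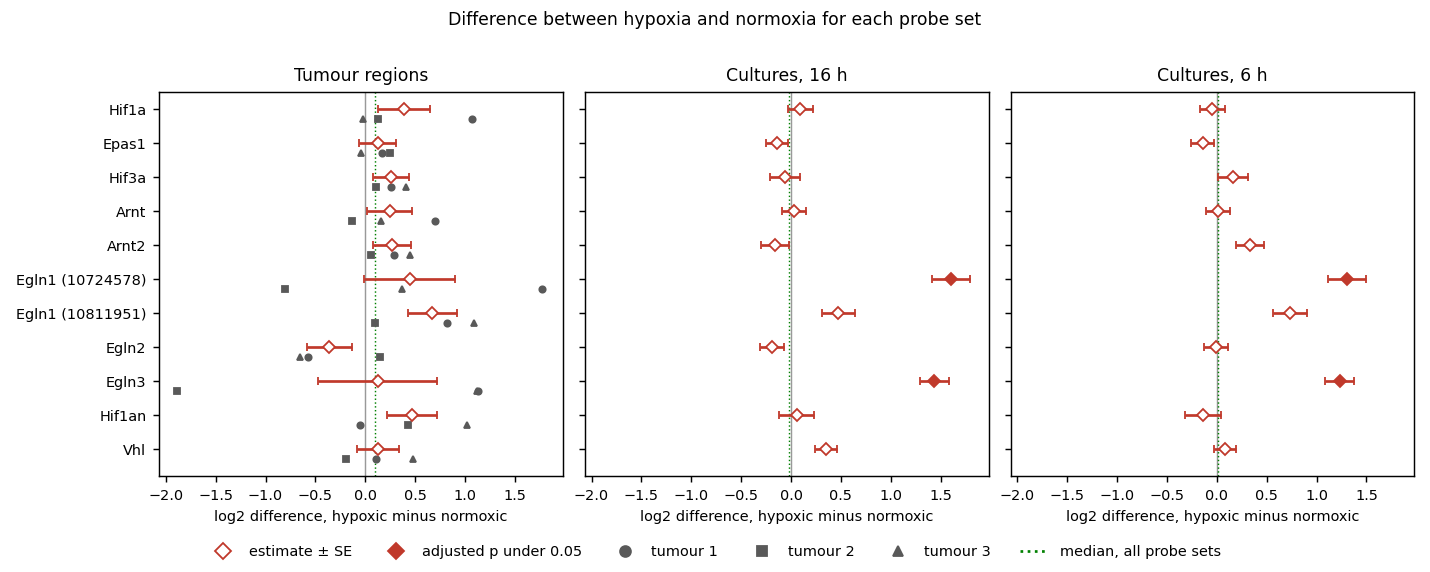
Difference in log2 level, hypoxic minus normoxic (horizontal axis), for each probe set in tumour regions, in cultures at 16 h and in cultures at 6 h. Diamonds with bars are limma estimates ± SE, filled where the adjusted p was under 0.05, grey symbols are the 3 tumours, and the dotted line is the median of all probe sets; Egln3 and Egln1 (10724578) are filled in both culture panels, and no diamond is filled in the tumour panel.

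In the tumours, no member passed the test between hypoxic and normoxic regions. The test, with the tumour as a block, called 0 of 11 member probe sets and 0 of all 27363 (0%). At an unadjusted limma p under 0.05 it had 1 member, Egln1 probe set 10811951, where 9.12% of all probe sets reached that level. This probe set read 8.42, 8.20 and 8.51 in hypoxic regions of tumours 1 to 3, against 7.60, 8.10 and 7.42 in normoxic regions, with no overlap and a difference of 0.67 ± 0.24 (unadjusted p = 0.0327, adjusted p = 0.498). Hypoxic regions lay wholly above normoxic ones for 2 of 11 member probe sets, this one and Arnt2, where 11.8% of all probe sets did so. They were higher within every tumour for 3 of 11 (these and Hif3a), where 22.9% of all probe sets were.

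Both probe sets that rose in cultures were higher in the hypoxic region of tumours 1 and 3 and lower in that of tumour 2. Egln3 read 6.43, 5.66 and 6.40 in hypoxic tissue of tumours 1, 2 and 3, against 5.30, 7.55 and 5.28 in their normoxic regions. The difference was thus 1.13 and 1.12 in tumours 1 and 3 and -1.88 in tumour 2, where the normoxic region held the highest tumour value. The mean difference was 0.12 ± 0.60 (limma adjusted p = 0.948), and without tumour 2 it was 1.13 (limma adjusted p = 0.246). The tumour 2 value of -1.88 had a percentile rank of 0.530 among that tumour's differences over all probe sets.

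Egln1 probe set 10724578 read 7.35, 6.40 and 5.62 in hypoxic regions, against 5.58, 7.21 and 5.25 in normoxic regions. Tumour 2 went the other way, with differences of 1.77, -0.81 and 0.37 in tumours 1, 2 and 3 and a mean of 0.44 ± 0.46 (limma adjusted p = 0.749). Without tumour 2 the mean difference was 1.07 (limma adjusted p = 0.466), and without tumour 1 it was -0.22. Over all 18 arrays the 2 probe sets of Egln1 correlated at r = 0.372, and probe set 10724578 correlated with Egln3 at r = 0.901.

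Most other known HIF targets were higher in the hypoxic region of tumour 2, as in the other tumours. Of 17 textbook targets, 14 were higher in its hypoxic region, with a median difference of 1.34, against 16 of 17 with a median of 1.76 in tumour 1 and 15 of 17 with a median of 1.11 in tumour 3. Over all probe sets the median differences were 0.077, -0.0019 and 0.21 in tumours 1, 2 and 3. Bnip3, a mitophagy receptor, differed by 4.11, 3.37 and 2.13 in tumours 1, 2 and 3, and the carbonic anhydrase Car9 by 1.83, 1.82 and 2.16. Some targets were higher but weakest in tumour 2, such as Adm at 2.46, 0.31 and 1.89 and Pdk1 at 1.38, 0.37 and 0.84 in tumours 1, 2 and 3. Others were weakest in tumour 3, such as Slc2a1 at 3.44, 2.01 and 0.26 and Hk2 at 2.51, 2.37 and 0.90. The 3 targets lower in hypoxia in tumour 2 were Ddit4 at -0.23, Pfkfb4 at -0.55 and Mxi1 at -0.76. Over the 3 tumours 16 of 17 targets had a positive difference, with a median of 1.55 against 0.10 over all probe sets, and 0 passed the test. These samples are mixtures of cells, so a gene carried by fewer cells and a gene with less RNA per cell cannot be told apart.

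**Figure D3:**
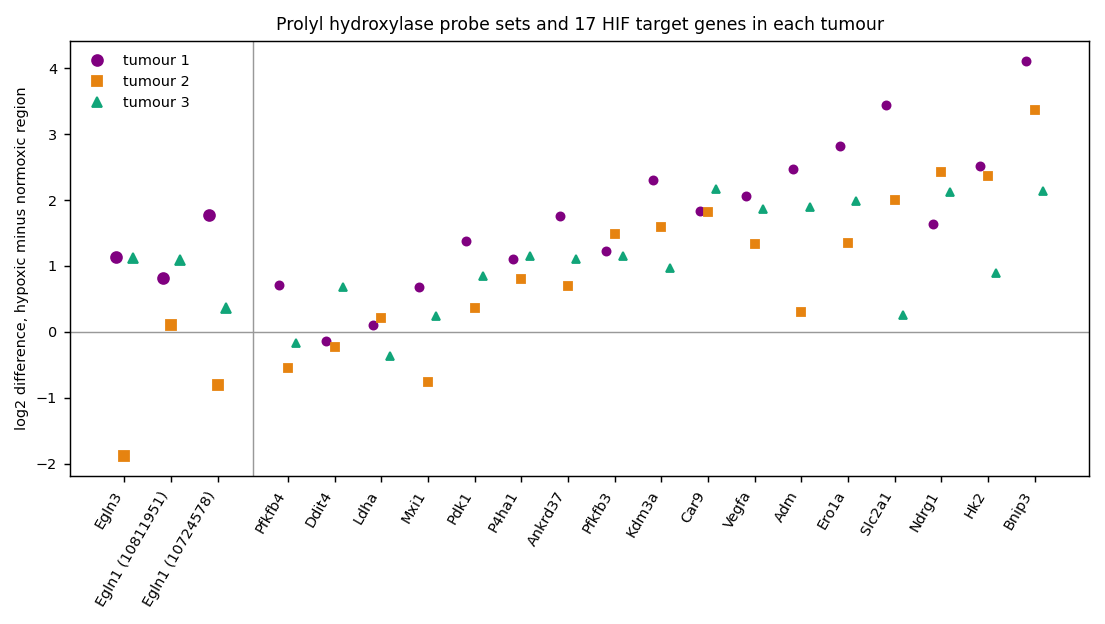
Difference in log2 level, hypoxic minus normoxic region (vertical axis), in each of the 3 tumours for the 3 probe sets of Egln3 and Egln1 (left) and for 17 HIF target genes ordered by their median (right). Tumour 2 (orange squares) lies at -1.88 for Egln3 and at 3.37 for Bnip3.

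Markers of cell types, glial ones included, were followed beside these values. None passed the test between the regions, but no probe set of the array did, so this does not show that these cells were equally frequent. The mean level of 15 macrophage markers ran from 7.28 to 7.86 in the hypoxic regions, against 7.91 to 8.51 in the normoxic regions, and 12 of the 15 had a negative difference (median -0.51, 0 called). The mean level of 11 T and NK cell markers ran from 6.02 to 6.33 in hypoxic regions, against 6.48 to 7.79 in normoxic regions, with 10 of 11 negative. Endothelial markers, 10 of 14 measured, ran from 6.01 to 6.21 in hypoxic regions and from 6.01 to 6.15 in normoxic regions. Neutrophil markers ran higher in hypoxic regions (5.53 to 5.94, against 5.28 to 5.52), with 10 of 10 positive. So did pericyte and smooth muscle markers (6.69 to 6.79, against 6.61 to 6.64), with 7 of 10 positive. Glial and neural stem cell markers did too (7.02 to 7.11, against 6.75 to 6.98), with 9 of 11 positive. The median differences of these lists ran from 0.16 to 0.19, against 0.10 over all probe sets. An unadjusted limma p under 0.05 was reached by 6 of 11 T and NK cell and 4 of 15 macrophage markers, where 9.12% of all probe sets reached it. So did 1 of 10 pericyte and smooth muscle and 1 of 11 glial and neural stem cell markers, and 0 endothelial, neutrophil, adipocyte or skeletal muscle markers. In cultures too, none of the 8 cell type lists had a marker called between oxygen levels. The part of these cells in the members' tumour values was not tested.

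The size of the hypoxia response in tumours was also set directly against the mean of the 2 culture times. The fit held all 18 arrays, with each pair of regions or of same-numbered cultures as a block. Of the members, 0 of 11 passed, where 1.17% of all probe sets did, and 1 (Egln1 probe set 10724578) had an unadjusted limma p under 0.05, where 16.6% of all did. The tumour response of Egln3 was smaller by -1.21 ± 0.57 (limma adjusted p = 0.315), a value that was -0.21 without tumour 2 and -1.71 without tumour 1. The response of Egln1 probe set 10724578 was smaller by -1.01 ± 0.45 (limma adjusted p = 0.295), and without tumour 1 it passed, at -1.68 (limma adjusted p = 0.0250). For probe set 10811951 the difference was 0.06 ± 0.25. The differences were 0.36 ± 0.23 for Hif1a and 0.51 ± 0.24 for Hif1an, and neither passed.

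More probe sets differed between tumours and cultures than between oxygen levels, and among the members Hif1a, Egln3, Epas1 and Hif3a did so in both comparisons. Hif1a was 2.67-fold lower in hypoxic tumour regions than in hypoxic cultures and 3.44-fold lower in normoxic tumour regions than in normoxic cultures. The log2 differences were -1.42 ± 0.19 (limma adjusted p = 9.19e-06) for hypoxic samples and -1.78 ± 0.19 (limma adjusted p = 2.05e-06) for normoxic samples. With arrays normalized by quantiles they were -0.69 and -1.28, and with arrays centred on their medians -1.78 and -2.10, and all 4 passed. The median of all probe sets was itself 0.37 higher in hypoxic tumour regions and 0.24 higher in normoxic tumour regions, which quantile normalization reduced to 0.11 and 0.06. The standard deviation of Hif1a was 0.56 in normoxic tumour regions, and 0.11 at 16 h and 0.21 at 6 h in normoxic cultures. In hypoxic samples it was 0.26 in tumour regions, and 0.16 at 16 h and 0.11 at 6 h in cultures. The fit took a shared spread, so the SE and p-values understate the scatter among tumour regions.

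Of the 11 member probe sets, 6 passed between hypoxic tumour regions and hypoxic cultures, where 76.0% of all probe sets did, and 4 passed between normoxic regions and normoxic cultures, where 64.3% did. In these fits both shares of members are below those of the array. In hypoxic samples that order depends on the setting. Under quantile normalization 6 of 11 passed there, where 13646 of 27363 probe sets did. Against the 16 h cultures alone 8 of 11 passed, where 19249 probe sets did. In normoxic samples quantile normalization gave 2 of 11, where 10489 probe sets passed. Epas1 was higher in tumours, by 0.80 ± 0.13 in hypoxic samples (limma adjusted p = 4.25e-05) and by 0.54 ± 0.13 in normoxic samples (limma adjusted p = 0.00180). In the values as deposited, every tumour array read 5.69 or more for Epas1, and every culture array 5.58 or less. With quantile normalization the Epas1 difference passed in hypoxic samples (0.36, limma adjusted p = 0.0286) and did not in normoxic samples (0.16, limma adjusted p = 0.345). With arrays centred on their medians no member was called higher in normoxic samples, so Epas1 and Hif3a did not pass as higher there.

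Hif3a was higher in tumours by 0.71 ± 0.14 in hypoxic samples (limma adjusted p = 0.000355) and by 0.49 ± 0.14 in normoxic samples (limma adjusted p = 0.00669). After quantile normalization these were 0.28 and 0.13, and neither passed, and without the normoxic region of tumour 2 the normoxic difference was 0.37 (limma adjusted p = 0.0560). Arnt2 was higher by 0.40 ± 0.12 in hypoxic samples (limma adjusted p = 0.00843), a difference that was 0.04 with quantile normalization or with centred arrays and did not then pass. In normoxic samples Arnt2 differed by 0.22, and its sign turned under both of these scalings, to -0.12 and -0.09.

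Egln3 was lower in tumours. It fell by 2.13 ± 0.37 in hypoxic regions relative to hypoxic cultures (limma adjusted p = 9.56e-05), and no tumour value overlapped the hypoxic culture values. In normoxic samples the Egln3 difference was -0.92 ± 0.37 (limma adjusted p = 0.0380), with tumour 2 at 7.55 above every normoxic culture and tumours 1 and 3 below them all. The fit took a shared spread for tumours and cultures. The standard deviation (SD) of Egln3 was 1.30 in normoxic tumour regions, and 0.24 at 16 h and 0.21 at 6 h in normoxic cultures. The SE and p-value thus understate the scatter among the tumour regions. The normoxic difference was -1.67 without the tumour 2 region, and the call was lost, at -0.55 and -0.53, without the region of tumour 1 or of tumour 3. It was also lost with any of normoxic cultures 22, 29, 13 and 26 left out (-0.87, -0.89, -0.91 and -0.87) and under quantile normalization (-0.98, limma adjusted p = 0.0869).

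Egln1 probe set 10724578 was lower by -1.57 ± 0.38 in hypoxic tumour regions than in hypoxic cultures (limma adjusted p = 0.00147). Its SD was 0.87 in hypoxic tumour regions, and 0.09 at 16 h and 0.33 at 6 h in hypoxic cultures, so the limit of a shared spread applies here too. In normoxic samples its difference was -0.55 ± 0.38 and did not pass (limma adjusted p = 0.203), though without the normoxic region of tumour 2 it was -1.15 and passed (limma adjusted p = 0.00846). Arnt, Egln1 probe set 10811951, Egln2, Hif1an and Vhl passed in neither comparison.

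Several of these 5 passed under other settings. Hif1an, at 0.40 in hypoxic samples (limma adjusted p = 0.0520), passed against the 16 h cultures alone (0.48), without tumour 1 (0.49), without culture 28 (0.47) and without culture 6 (0.48). Egln1 probe set 10811951, at 0.35 in hypoxic samples (limma adjusted p = 0.0673), passed against the 16 h cultures alone (0.52) and under quantile normalization (0.97), and in normoxic samples, at 0.29 (limma adjusted p = 0.141), under quantile normalization (0.59) and without tumour 3 (0.43). With arrays centred on their medians its sign turned, to -0.0019 in hypoxic and -0.023 in normoxic samples.

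Arnt, at 0.27 in hypoxic samples (limma adjusted p = 0.124), passed under quantile normalization (0.80) and without tumour 3 (0.40), and its sign turned with centred arrays (-0.087). Without tumour 3 Egln2 passed in both comparisons, at 0.48 in hypoxic and 0.60 in normoxic samples, where all arrays gave 0.13 and 0.39. Vhl, at 0.04 in hypoxic samples, was lower and passed with centred arrays (-0.32, limma adjusted p = 0.0189). Over these alternatives the members called ran from 5 to 8 of 11 in hypoxic samples and from 2 to 5 of 11 in normoxic samples. The probe sets called over the whole array ran from 13646 to 20578 in hypoxic samples and from 10489 to 18372 in normoxic samples.

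Most macrophage and endothelial markers were higher in tumours than in cultures under each scaling used. The 15 macrophage markers averaged 7.28 to 8.51 in the 6 tumour arrays, against 5.22 to 5.43 in the 12 culture arrays, and all 15 were called higher in both comparisons, where 53.5% of all probe sets were called higher in hypoxic samples and 43.6% in normoxic samples. The 10 endothelial markers averaged 6.01 to 6.21 in tumour arrays, against 5.28 to 5.53 in culture arrays, and all 10 were called higher in both. Of the other lists, 10 of 11 T and NK cell markers were called higher in hypoxic tumour regions than in hypoxic cultures, as were 6 of 10 pericyte and smooth muscle, 9 of 10 neutrophil, 8 of 8 adipocyte, 7 of 8 skeletal muscle and 10 of 11 glial and neural stem cell markers. The pericyte and smooth muscle share is near that of the whole array. These counts depend on the scaling. Under quantile normalization, where 30.5% of all probe sets were called higher in hypoxic samples, 14 of 15 macrophage, 7 of 10 endothelial, 5 of 11 T and NK cell, 3 of 10 pericyte and smooth muscle, 5 of 10 neutrophil, 2 of 8 adipocyte, 5 of 8 skeletal muscle and 6 of 11 glial and neural stem cell markers were. With centred arrays the macrophage count was again 14 of 15 and the endothelial count 6 of 10, where 26.7% of all probe sets were called higher. The part of these cells in the lower Hif1a and Egln3 and the higher Epas1 of the tumours was not tested. Laser capture, growth in an animal and these marker levels differ together between tumour and culture samples and cannot be told apart.

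**Figure D4:**
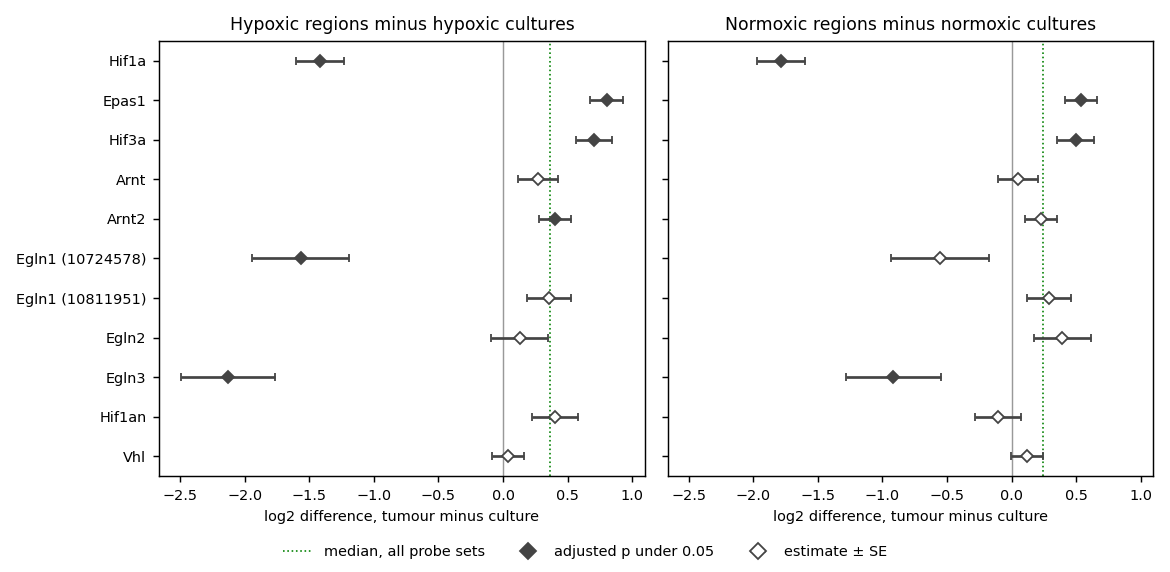
Difference in log2 level, tumour minus culture (horizontal axis), for each probe set, in hypoxic samples (left) and in normoxic samples (right). Diamonds with bars are limma estimates ± SE, filled where the adjusted p was under 0.05, and the dotted line is the median of all probe sets; Hif1a and Egln3 lie below 0 and Epas1 and Hif3a above it in both panels.

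Other genes of the pathway were counted from 4 lists. Of the VHL ligase and its partners, with Elob, Eloc, Cul2 and Rbx1 as the shared ligase core, 9 of 9 were measured and 0 were called in tumours or in cultures at either time. Their median differences were -0.05 in tumours, 0.0067 at 16 h and 0.0066 at 6 h. The smallest p-values belonged at 16 h to Limd1, a scaffold that links EGLN1 to VHL, at -0.48 ± 0.16 (limma adjusted p = 0.309), and at 6 h to Wsb1, a ligase subunit reported to target VHL, at 0.38 ± 0.16 (limma adjusted p = 0.953).

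Of HIF cofactors and modulators, such as the coactivators Ep300 and Crebbp, 16 of 18 were measured and 0 were called in any of the 3 comparisons, with medians of -0.03 in tumours, 0.03 at 16 h and -0.02 at 6 h. In tumours the smallest p belonged to Wdr83, a scaffold known to bind EGLN3, at -0.78 ± 0.22 (limma adjusted p = 0.384). At 16 h it belonged to Ing4, a chromatin reader reported to restrain HIF activity, at 0.30 ± 0.10 (limma adjusted p = 0.284). The coactivator inhibitor Cited2 was next at 16 h, at 0.35 ± 0.12 (limma adjusted p = 0.354).

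Of other bHLH-PAS factors, relatives of the HIF subunits, 10 of 11 were measured and 0 were called in the same 3 comparisons. In tumours 9 of 10 had a positive difference, with a median of 0.25, where the median of all probe sets was itself 0.10. The share of all probe sets with a positive difference was not counted. In cultures the median of the list was -0.11 at 16 h and 0.11 at 6 h. In tumours the circadian partners Bmal1 and Clock had the smallest p-values of the list, at 0.79 ± 0.28 and 0.68 ± 0.24 (limma adjusted p of 0.494 and 0.496).

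The other 2-oxoglutarate oxygenases use the same co-substrates as the EGLN enzymes, and 21 of 31 were measured. In cultures at 16 h, 6 of 21 rose and 0 fell, where 0.603% of all probe sets were called higher. The median difference was 0.37 against -0.03 over all probe sets. The 4 with the smallest p were the histone demethylase Kdm3a at 1.24 ± 0.13, the collagen prolyl hydroxylase P4ha2 at 1.38 ± 0.17, and the collagen lysyl hydroxylases Plod1 at 0.99 ± 0.13 and Plod2 at 1.15 ± 0.17. At 6 h, 3 of 21 rose and 0 fell (Kdm3a at 1.00 ± 0.13, P4ha1 at 0.83 ± 0.13 and P4ha2 at 1.02 ± 0.17), with a median of 0.12, where 0.183% of all probe sets were called higher. In tumours 0 of 21 passed, with a median of 0.11, and Kdm3a and Plod2 had the smallest p-values, at 1.62 ± 0.28 (limma adjusted p = 0.218) and 1.32 ± 0.23 (limma adjusted p = 0.219). Of the 17 textbook HIF targets, which share Kdm3a and P4ha1 with this list, 13 rose in cultures at 16 h and 12 at 6 h, with medians of 1.42 and 1.17. The same shares of all probe sets stand beside these counts.

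The genes whose levels ran most like the 2 induced probe sets over all 18 arrays were named by Pearson's r. For Egln3 they were Map2k1, a MAP kinase kinase, at 0.915, Insig2, a regulator of sterol synthesis, at 0.902, and Egln1 probe set 10724578 at 0.901. For Egln1 probe set 10724578 they were Egln3 at 0.901, Pdk1, a kinase that inhibits pyruvate dehydrogenase, at 0.894, and the lipid kinase Pi4ka at 0.882. These coefficients are descriptions: the arrays fall into tumour and culture samples and share their processing.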

How the data were processed

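Affymetrix Rat Gene 1.0 ST arrays measured amplified RNA of 18 samples in 6 groups of 3. The authors deposited log2 probe set values, and the submitters' processing notes name RMA and Partek 6.5b. It is not stated there whether 1 normalization covered all arrays. Values ran from 2.16 to 13.8, no 2 arrays were identical, and precision is limited by having 3 arrays in a group. The platform annotation lists 15420 of 27363 probe sets, 15097 with 1 symbol, 323 with several and 11943 not listed. By Entrez ID, 15067 matched the RefSeq gene table of build GRCr8 and 0 symbols changed. Arnt2 also occurs on a probe set with several symbols, which was not used.

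Tests used limma 3.58.1 in R 4.3.3 (lmFit and eBayes, two-sided, Benjamini-Hochberg adjustment over all probe sets, threshold 0.05). For tumour regions the fit held their 6 arrays and a block for each tumour. Cultures were fitted on their 12 arrays in 4 groups. The tumour response against the culture response was fitted on 18 arrays with 9 pairs as blocks, and tumour against culture levels on 18 arrays in 6 groups. Both fits took a shared spread for each probe set over tumours and cultures, though replicate cultures were more alike than replicate tumour arrays. Region pairs come from the same tumour. The labels do not say what the numbers in the culture titles stand for. Same-numbered cultures were taken as pairs in the fit with 9 pairs, while the main culture fit used none. Same-numbered deviations from group means correlated at 0.130, 0.188 and 0.307 at 16 h and at 0.125, 0.193 and 0.192 at 6 h. Differently numbered ones ran from -0.197 to -0.0246 at 16 h and from -0.265 to 0.177 at 6 h, so the 6 h values overlapped. In tumours, whose pairs are known, hypoxic region 1 correlated at 0.128 with its own normoxic region and at 0.167 with another tumour's. Such correlations therefore do not establish which cultures are pairs. The tests were also run on simulated data with 200 changed probe sets. The simulated arrays had no pair effects and the same spread in tumours and cultures, so they do not show how the fits behave where pairs or spreads differ.

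The 10 members and the 13 lists (5 of pathways, 8 of cell types, 156 of 179 entries measured) were chosen with earlier results of these data known. Every member probe set is described. Of a list, the genes past the threshold are named, or the 4 with the smallest p where more passed, or at most 2 where none did. A listed gene with several probe sets is represented by the one with the highest mean. For each member probe set past the threshold in a hypoxia comparison, the 3 genes of highest correlation are named. Alternatives were quantile normalization, median centring, leaving out the dimmest 25% of probe sets, other blocks and samples, and leaving out each replicate. Median centring of the tumour arrays was chosen after seeing the data.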

Additional observations from a re-analysis of the deposited data

How the results depend on the processing

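The alternatives gave 756 values for single members, covering all 11 probe sets in the hypoxia and the tumour against culture comparisons and the named ones in the differences of response. Of these, 677 kept their direction and their side of the threshold, 23 lost a call, 14 gained one and 42 changed sign. With all 18 arrays in 6 groups, 0 of 11 members passed at 16 h and 0 at 6 h. That fit leaves the culture differences as they are and changes only the spread they are tested against. Leaving out replicates gave 1 to 2 of 11 at 6 h and 0 to 1 for the tumour response against the culture response. Between normoxic regions and normoxic cultures, 2 passed under quantile normalization and 2 with arrays centred on their medians. No paired fit changed a call of a member: with the culture number as a replicate block, 2 of 11 passed at 16 h and 2 at 6 h.

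Signs turned for Egln2 at 6 h under quantile normalization (0.0015) and for Arnt2 in normoxic tumour against culture (-0.12 quantile, -0.089 centred). Between hypoxic regions and hypoxic cultures, centred arrays gave -0.087 for Arnt, -0.0019 for Egln1 probe set 10811951, -0.23 for Egln2 and -0.32 for Vhl, quantile normalization gave -0.0057 for Vhl, only 6 h cultures gave -0.087 for Egln2 and only 16 h cultures gave -0.029 for Vhl. Between normoxic regions and normoxic cultures, centred arrays gave -0.26 for Arnt, -0.023 for Egln1 probe set 10811951 and -0.19 for Vhl, and only 16 h cultures gave -0.076 for Arnt and 0.071 for Hif1an. With replicates left out, the tumour differences ran from -0.22 to 1.07 for Egln1 probe set 10724578, from -0.38 to 1.13 for Egln3 and from -0.044 to 0.29 for Vhl. Culture differences at 16 h ran from -0.20 to 0.062 for Hif3a, from -0.018 to 0.098 for Arnt and from -0.078 to 0.17 for Hif1an. At 6 h they ran from -0.15 to 0.059 for Hif1a, from -0.11 to 0.11 for Arnt, from -0.082 to 0.050 for Egln2 and from -0.30 to 0.058 for Hif1an. Between hypoxic regions and hypoxic cultures the differences ran from -0.21 to 0.48 for Egln2 and from -0.14 to 0.19 for Vhl, and between normoxic regions and normoxic cultures from -0.19 to 0.20 for Arnt and from -0.28 to 0.10 for Hif1an. The tumour minus culture response of Egln1 probe set 10811951 ran from -0.15 to 0.35.

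Counts over all probe sets moved more. The tumour count of 0 became 1408 with 18 arrays and the pair as a block, 563 without tumour 1 and 1 without the dimmest 25%. The 6 h count of 52 became 6 with all 18 arrays in 6 groups and 27 to 50 with replicates left out, and the 16 h count of 193 became 33 and 74 to 171. The count of 319 for the difference in response became 638 under quantile normalization and 44 to 1365 with replicates left out. Between hypoxic regions and hypoxic cultures 14630 were higher and 6159 lower, which was 8335 and 5311 under quantile normalization and 7317 and 8670 with centred arrays. Between normoxic regions and normoxic cultures 11938 were higher and 5663 lower, which was 6032 and 4457 under quantile normalization and 4371 and 8487 with centred arrays. Where arrays were only added to a fit, the differences stayed the same and the spread changed. The cause of the other changes was not tested. With 3 arrays a group, a p that misses the threshold does not show that levels were equal.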
